A study of Caenorhabditis elegans with 12 samples.

Results

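The lysozyme genes of Caenorhabditis elegans were followed across mitochondrial stress in wild-type worms and in worms with a mutated atfs-1 gene. The members were 10 named genes, lys-1 to lys-8, lys-10 and ilys-3, found by their symbol in the annotation of the array. They were covered by 11 probe sets (groups of short array probes that report 1 transcript or several), of which 10 name a single lysozyme gene and 1 names both lys-5 and lys-6. The array annotation names 17118 genes through a probe set of their own, and 10385 of these, 7 lysozyme genes among them, were bright enough to be tested.

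Lysozymes are enzymes that cut the peptidoglycan wall of bacteria. Caenorhabditis elegans, which lives on bacteria, makes them largely in the intestine, where they serve both the digestion of food and the defence against pathogens. The lys genes resemble lysozymes of protists, and the ilys genes belong to the type found across invertebrates. Several lys genes are standard readouts of innate immunity, and they respond to the p38 kinase PMK-1, to the forkhead factor DAF-16 or to the growth factor DBL-1.

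Total RNA of whole worms at the last larval stage, L4, was measured on 12 Affymetrix arrays in 4 groups of 3 biological replicates. The groups were wild type (N2) and atfs-1(tm4525), an allele in the N2 background, each kept on control RNAi bacteria or on bacteria that target spg-7. The transcription factor ATFS-1 drives the unfolded protein response of mitochondria, and spg-7 codes for a mitochondrial protease whose knockdown stresses mitochondria, so the design asks which responses to that stress need atfs-1. The unit throughout is the deposited signal, on a linear scale with a median of 112 to 159 per array. A log2 difference compares means of log2 signals, and a fold is that difference on the linear scale. A difference counted as called where limma gave an adjusted p (Benjamini-Hochberg, over all 10385 genes of a comparison) under 0.05.

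The groups are named here by their labels. The signal of spg-7 itself was 454 to 1057 on wild-type control RNAi arrays and 7278 to 22348 on wild-type spg-7 RNAi arrays, and 313 to 450 against 9968 to 26208 in the mutant. It was thus higher, not lower, on all arrays labelled spg-7 RNAi, so it gives no check of the knockdown. Whether this probe set reads RNA of the RNAi construct, or whether the RNAi labels were exchanged, was not tested. Every direction below follows the labels, and an exchange would turn those of the RNAi comparisons. The signal of atfs-1 was 370 to 454 and 586 to 996 in wild type and 386 to 523 and 555 to 618 in the mutant, so a signal remained at this probe set in atfs-1(tm4525). Arrays of 1 group also differed in markers of reproductive maturity. The median log2 signal of 5 of 6 vitellogenins, the yolk proteins, was 6.46 on wild-type control RNAi replicate 1 and 10.95 to 14.61 on the other 11 arrays, and that of 13 oocyte and eggshell markers ran from 8.16 to 12.72.

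By the RefSeq gene table of assembly WBcel235, lys-1, lys-2 and lys-3 are adjacent protein-coding genes. The genes lys-4, lys-5 and lys-6 form another adjacent trio, and ilys-3 lies next to ilys-2 and ilys-1. The probe sets of lys-2, lys-3, lys-4, lys-6 and lys-7 are of type s, which can bind transcripts of more than 1 gene, so signal from a close relative cannot be told from their own. Those of lys-1, lys-5, lys-8, lys-10 and ilys-3 are of the gene-specific type.

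In wild type, lys-2 and lys-7 rose on spg-7 RNAi, by 5.97-fold and 4.81-fold. No listed gene was called lower, and lys-1, lys-4, lys-6, lys-8 and ilys-3 did not pass the test. In the same comparison 4.73% of all tested genes were called, 3.29% higher and 1.43% lower. The median log2 difference was 1.05 over the 7 tested lysozyme genes and -0.04 over all tested genes. The 7 include ilys-3, which passed the filter narrowly (mean log2 signal 6.49 against 6.25). Its highest group mean, 380, was on wild-type spg-7 RNAi, so the filter itself favours a higher median here. Without the filter on dim probe sets the 10 genes had a median of 0.73, and lys-2 and lys-7 were again the genes called.

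The gene lys-2, a commonly used target of the PMK-1 pathway, gave signals of 978, 5227 and 3312 on the wild-type control RNAi replicates 1, 2 and 3. On wild-type spg-7 RNAi it gave 19216, 17486 and 10735. All 3 spg-7 RNAi arrays stood above all 3 control arrays, and control replicate 1 was the lowest of all 12 arrays. The group means were 3172 ± 2128 and 15812 ± 4481 (SD, n = 3 each), a log2 difference of 2.58 ± 0.51 (SE) with a limma adjusted p of 0.0163. Of the wild-type spg-7 RNAi arrays, leaving out replicate 1 (log2 2.42, adjusted p = 0.0549) or replicate 2 (2.48, 0.0673) ended the call, as did fitting only the wild-type arrays (0.118). Leaving out wild-type control RNAi replicate 1 gave 1.88, a value over 1.5 times lower on the linear scale, with the call kept.

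In the mutant, lys-2 gave 3543, 2902 and 3074 on control RNAi. On spg-7 RNAi the mutant values were 13397, 14756 and 6934. The groups again did not overlap, and the control arrays lay close together. The log2 difference of 1.81 ± 0.51 (SE), 3.51-fold, had an unadjusted limma p of 0.0044 and an adjusted p of 0.176, so it was not called. It was called without wild-type control RNAi replicate 1 (adjusted p = 0.0151), an array that enters this difference only through the shared estimate of the spread. The responses of the genotypes differed by -0.77 (mutant minus wild type), with a 95% interval from -2.36 to 0.82 and an adjusted p of 0.922. That interval leaves room for a lower response in the mutant and for a higher one, and the value ran from -1.28 without wild-type control RNAi replicate 2 to -0.069 without replicate 1 of that group.

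**Figure D1:**
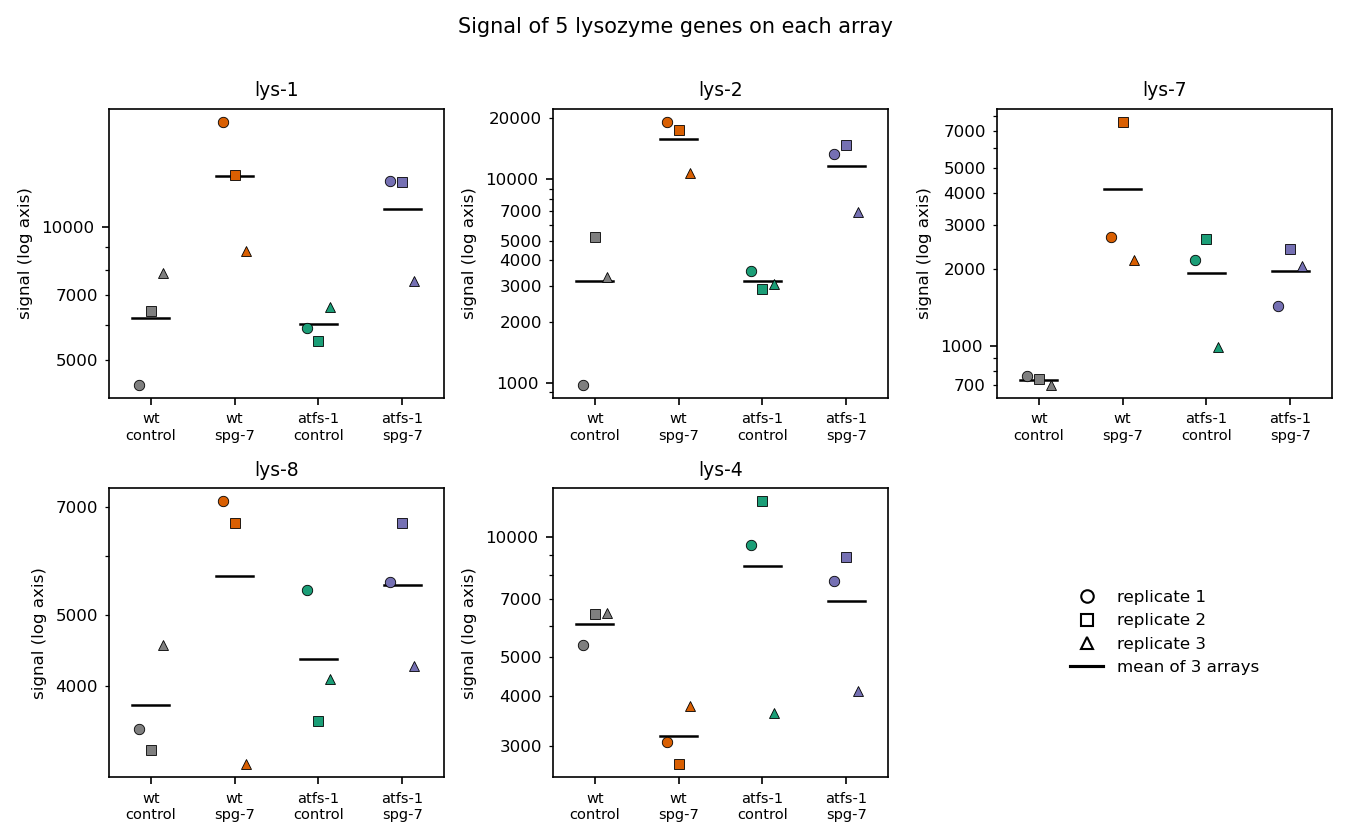
Deposited signal (log axis) of lys-1, lys-2, lys-7, lys-8 and lys-4 on each of the 12 arrays, by genotype (wt, wild type; atfs-1, atfs-1(tm4525)) and RNAi, with the shape of a point giving the replicate number and a line at the arithmetic mean of 3 arrays. For lys-2 all spg-7 RNAi arrays lie above the control arrays in both genotypes, and for lys-7 the 3 wild-type control arrays, at 705 to 763, lie below all other arrays.

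The gene lys-7, a known target of DAF-16, gave 763, 745 and 705 on the wild-type control RNAi replicates. These were the 3 lowest values of the 12 arrays. On wild-type spg-7 RNAi it gave 2683, 7609 and 2181, with replicate 2 far above the other replicates. The means were 738 ± 29.7 and 4158 ± 2999 (SD, n = 3), and the log2 difference was 2.27 ± 0.46 (SE) with a limma adjusted p of 0.0177. Leaving out wild-type spg-7 RNAi replicate 2, the log2 difference was 1.71 and not called (adjusted p = 0.0516), and without wild-type control RNAi replicate 3 it was 2.23 and not called (0.0622). Fitting only the wild-type arrays did not call it either (0.0877), and with array weights it was 3.07.

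In atfs-1(tm4525), lys-7 already stood at 2170, 2643 and 996 on control RNAi, and at 1433, 2398 and 2069 on spg-7 RNAi. The mutant groups overlapped, with means of 1936 ± 848 and 1967 ± 491 (SD, n = 3) and a log2 difference of 0.11 with a 95% interval from -0.90 to 1.11. That value had no settled sign, at -0.32 without mutant control RNAi replicate 3. It was -0.65 when arrays were scaled to the hybridisation controls, where the median of all genes was -0.77. The difference between the responses was -2.16 ± 0.65 (log2, SE; mutant minus wild type). Its unadjusted limma p was 0.0063 and its adjusted p was 0.664, so it did not pass over all genes. On control RNAi every mutant array was above every wild-type array, by 2.42-fold (log2 1.28 ± 0.46, adjusted p = 0.434). Under spg-7 RNAi the genotypes overlapped, with a log2 difference of -0.88 (adjusted p = 0.381). From low to high mean signal the groups ran wild type on control RNAi, mutant on control RNAi, mutant on spg-7 RNAi and wild type on spg-7 RNAi. Of the neighbours in this order, the first pair did not overlap and the other pairs did.

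The gene lys-1, expressed in the intestine and known to be induced by infection with Serratia marcescens, gave 4404, 6446 and 7852 on wild-type control RNAi and 17252, 13106 and 8802 on wild-type spg-7 RNAi. For the mutant the lys-1 values were 5923, 5538 and 6607 with control RNAi and 12681, 12647 and 7552 with spg-7 RNAi. In each genotype the lowest spg-7 RNAi array, replicate 3 in both, was still above the highest control array. The log2 differences were 1.05 ± 0.30 in wild type (SE; 2.07-fold, limma adjusted p = 0.0733) and 0.83 ± 0.30 in the mutant (1.77-fold, adjusted p = 0.368), and neither was called. Leaving out replicate 3 of wild-type spg-7 RNAi, the wild-type value was 1.31 and called (adjusted p = 0.0296). With arrays centred on their medians it was also called (0.0279), and with quantile normalisation as well (0.0211), but not scaled to the hybridisation controls (0.85, adjusted p = 0.140), where the mutant value was 0.075. The difference between the genotypes' responses was -0.23, with a 95% interval from -1.16 to 0.71.

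The gene lys-8, whose expression depends on DBL-1 signalling, gave 3502, 3283 and 4554 on wild-type control RNAi and 7118, 6642 and 3140 on wild-type spg-7 RNAi. Replicate 3 of the spg-7 RNAi arrays was the lowest of the 12 arrays, and the other wild-type spg-7 RNAi arrays were above all controls. In the mutant lys-8 stood at 5406, 3587 and 4094 on control RNAi and at 5532, 6655 and 4260 on spg-7 RNAi, groups that overlapped. The log2 differences were 0.50 ± 0.32 (SE; adjusted p = 0.415) and 0.33 ± 0.32 (adjusted p = 0.742). When replicate 3 of wild-type spg-7 RNAi was left out, the difference was 0.88 and still not called (adjusted p = 0.0723).

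The trio lys-4, lys-5 and lys-6 had lower means on spg-7 RNAi in both genotypes, with no call. The gene lys-4 gave 5353, 6396 and 6458 on wild-type control RNAi and 3079, 2707 and 3782 on wild-type spg-7 RNAi. Each of these spg-7 RNAi arrays was below each control array. The log2 difference was -0.94 ± 0.41 (SE), with an unadjusted limma p of 0.0418 and an adjusted p of 0.229. Mutant lys-4 signals were 9519, 12252 and 3627 with control RNAi and 7732, 8886 and 4130 with spg-7 RNAi, and the third replicate was the lowest in both groups. The mutant log2 difference of -0.19 had an interval from -1.09 to 0.70, and it was 0.16 without mutant control RNAi replicate 2 and 0.14 without mutant spg-7 RNAi replicate 3. Under spg-7 RNAi every mutant array was above every wild-type array for lys-4, by 2.08-fold (log2 1.06 ± 0.41, adjusted p = 0.248).

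The order of the group means differed between these genes. For lys-2 it ran, from low to high, wild type and mutant on control RNAi (means of 3172 and 3173), mutant on spg-7 RNAi and wild type on spg-7 RNAi, and only the middle pair of neighbours did not overlap. For lys-1 and lys-8 both control groups were likewise the lowest and wild type on spg-7 RNAi the highest, with overlap between all neighbours. The top place for lys-8 holds only for arithmetic means (5633 in wild type, 5483 in the mutant). On the log2 scale the mutant on spg-7 RNAi was higher, by 0.026. The order for lys-4 began with wild type on spg-7 RNAi, apart from all others but for mutant control RNAi replicate 3, and went on through wild-type control RNAi and mutant spg-7 RNAi to mutant control RNAi, which overlapped.

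The lys-6 probe set was dim. Its signals were 175, 105 and 56.2 on wild-type control RNAi, 90.9, 62.5 and 71.4 on wild-type spg-7 RNAi, 176, 212 and 68.1 on mutant control RNAi and 78.2, 115 and 81.3 on mutant spg-7 RNAi. Both pairs of groups overlapped, at log2 differences of -0.45 (limma adjusted p = 0.672) and -0.60 (0.705). The probe set shared by lys-5 and lys-6 gave -0.40 and -0.68 in a fit of all probe sets (adjusted p = 0.705 and 0.703). On mutant control RNAi it stood at 211, 352 and 95.4, and on the other 9 arrays at 50.7 to 154. The probe set of lys-5 alone was under the filter level on 11 of 12 arrays and reached 148.5 on mutant control RNAi replicate 2. That array had the highest signal of all 12 at lys-4, lys-5, lys-6 and the shared probe set.

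Of the 3 genes that did not pass the filter, lys-10 came closest, with a mean log2 signal of 6.10 against a filter level of 6.25 (a signal of 76). Just above the filter level was ilys-3, at 6.49. The lys-10 signals were 32.1, 115 and 69.4 on wild-type control RNAi, 39.6, 235 and 198 on wild-type spg-7 RNAi and 16.9 to 134 on the 6 mutant arrays. Its log2 differences in the fit without the filter were 0.95 ± 0.81 and 0.20 ± 0.81 (SE; limma adjusted p = 0.645 and 0.959). The signals of lys-3 were 2.94 to 80.2 on the 12 arrays, under the filter level on 11 of them, and its differences of 0.51 and -0.94 had standard errors of 0.91.

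The invertebrate-type gene ilys-3, which acts in breaking down ingested bacteria, gave 96.9, 2.40 and 118 on wild-type control RNAi and 101, 718 and 320 on wild-type spg-7 RNAi. The groups overlapped, and a single control array at 2.40 lowered its group. The log2 difference was 3.24 (95% interval -0.03 to 6.52, adjusted p = 0.252), and 1.42 without wild-type control RNAi replicate 2. In the mutant ilys-3 stood at 107, 441 and 11.2 on control RNAi and at 105, 101 and 78.6 on spg-7 RNAi. Adding 32 to every signal before log2 gave 1.91 in wild type and -0.16 in the mutant, where the value without the addition was 0.22, so the mutant difference had no settled sign.

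**Figure D2:**
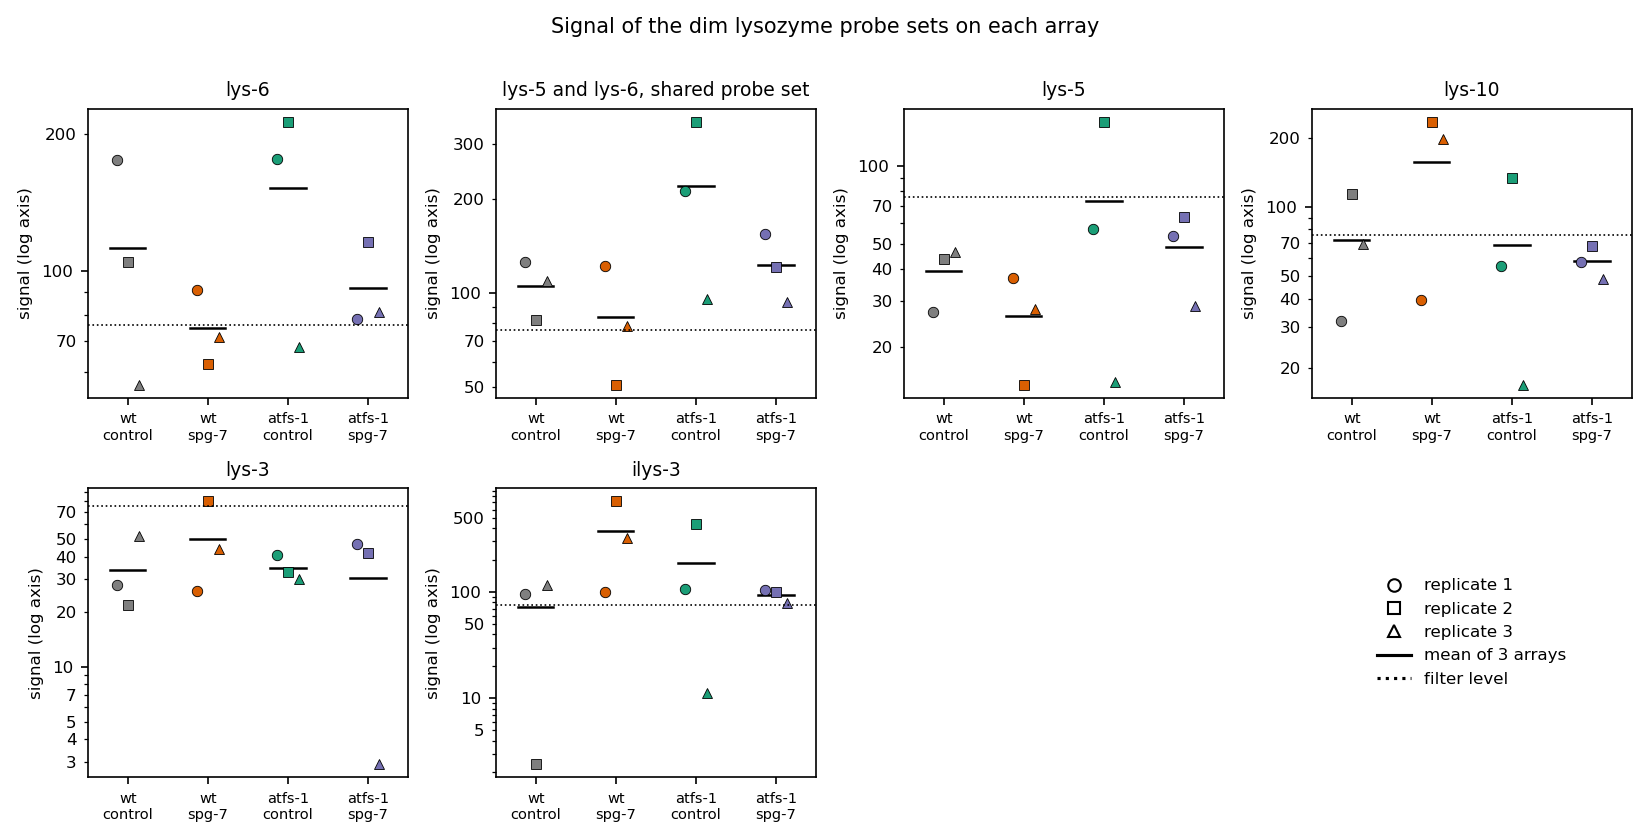
Deposited signal (log axis) of the dim lysozyme probe sets on each array, with the filter level of 76 as a dotted line, replicate numbers as shapes and the arithmetic mean of 3 arrays as a line. Groups overlap in every panel for both RNAi comparisons, and ilys-3 falls to 2.40 on 1 wild-type control array.

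In the mutant none of the 7 tested lysozyme genes was called on spg-7 RNAi in limma, where 1.17% of all tested genes were called, 0.944% higher and 0.221% lower. At an unadjusted p under 0.05 there were 2, lys-1 and lys-2, where 9.47% of all genes passed that level. The median log2 difference over the 7 was 0.22, against -0.02 over all genes. The groups did not overlap, with spg-7 RNAi higher, for lys-1 and lys-2 in both genotypes and for lys-7 in wild type. Such groups were found for 9.99% of all tested genes in wild type and for 13.1% in the mutant worms. The opposite, seen for lys-4 in wild type, was found for 8.48% there and for 12.7% in the mutant. Between genotypes the mutant was wholly above wild type for lys-7 on control RNAi, as for 11.8% of all genes (5.79% were wholly below), and for lys-4 on spg-7 RNAi, as for 15.7% (7.29% wholly below).

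No lysozyme gene passed the test of the difference between responses or of genotype on either RNAi. Limma called 0% of all genes for the difference between responses, 0% for genotype on control RNAi and 0.0963% for genotype on spg-7 RNAi (0.00963% higher and 0.0867% lower in the mutant). At an unadjusted limma p under 0.05 there was 1 lysozyme gene in each: lys-7 for the response, lys-7 on control RNAi and lys-4 on spg-7 RNAi. Across all genes the shares at that level were 6.23%, 10.7% and 15.4%.

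**Figure D3:**
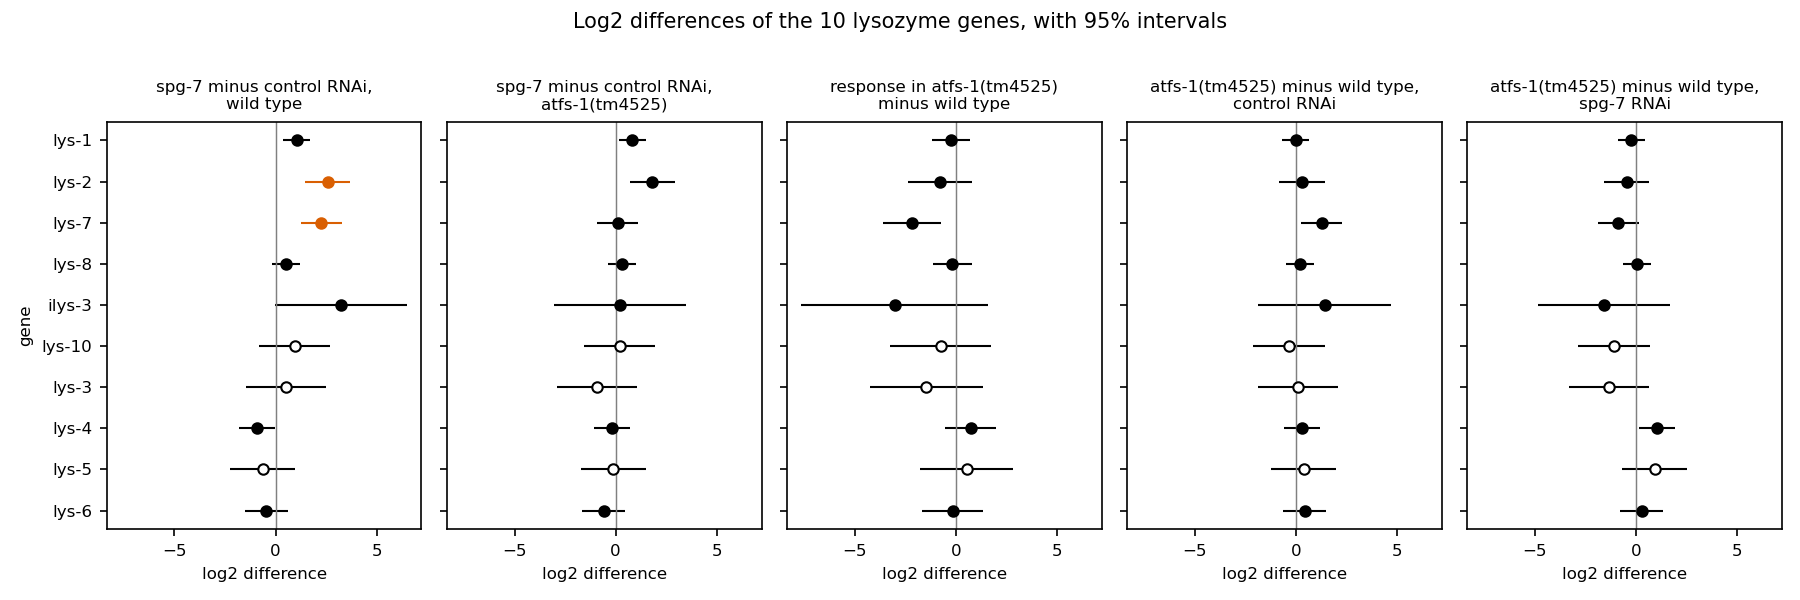
Log2 differences of the 10 lysozyme genes in 5 comparisons, each with its 95% interval; orange points were called at an adjusted p under 0.05 and open points come from the fit without the filter. The called points are lys-2 (2.58) and lys-7 (2.27) in the wild-type response, and the interval of lys-7 in the difference between responses runs from -3.58 to -0.74.

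A comparison added after the values had been seen averaged the RNAi responses of both genotypes in the same fit. It shares its arrays with the comparisons above. The average log2 difference of lys-2 was 2.20 ± 0.36 (SE; 4.58-fold, limma adjusted p = 0.0038), and the call held without each of the 12 arrays. The average for lys-1 was 0.94 ± 0.21 (1.92-fold, adjusted p = 0.0227), with no overlap of the RNAi groups in either genotype, and it was lost in 5 of 12 fits without 1 array (adjusted p up to 0.0724) and when scaled to the hybridisation controls (0.46, adjusted p = 0.142). The average for lys-7 was 1.19 (adjusted p = 0.0494), lost in 10 of 12 such fits, and it combines 2.27 in wild type with 0.11 in the mutant. In this comparison 7.13% of all genes were called, 4.97% higher and 2.16% lower.

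Levels of tissue markers were read on the same arrays. In bulk RNA of whole worms, fewer cells of a type and less RNA per cell cannot be told apart. The median log2 signal of 9 of 10 intestine markers was 10.90, 11.48 and 11.60 on wild-type control RNAi and 12.51, 11.28 and 10.77 on wild-type spg-7 RNAi. The mutant medians were 11.33, 11.46 and 11.41, and 11.89, 11.72 and 10.94. The array order within each of these groups was that of lys-1 in all groups but mutant control RNAi. With that intestine level as a covariate, added after the values had been seen, the wild-type log2 difference was 2.41 for lys-2 (adjusted p = 0.0105), 2.29 for lys-7 (0.0227) and 0.93 for lys-1, now called (0.0167). That fit made 556 calls over all genes in wild type, against 491 without the covariate. Over 9 of 9 pharynx markers the median was 9.63 to 11.25 on wild-type control RNAi and 8.02 to 9.25 on wild-type spg-7 RNAi. It was 9.42 to 10.20 and 9.59 to 9.95 in the mutant. In the wild-type comparison 3.29% of all tested genes were called higher and 1.43% lower, and 20.1% had an unadjusted limma p under 0.05. Of the 9 pharynx markers 2 were called lower there (median log2 difference -1.42), with 7 at that unadjusted level. Of 9 tested intestine markers 1 was called higher (median 0.31), as was 1 of 10 neuron markers (median -0.09), with 2 at that level in each. Of 10 body wall muscle markers 1 was called lower (median -0.54, with 5). None was called of 10 tested epidermis and cuticle markers (median -0.82, with 4) or of 3 coelomocyte markers (median -0.14, with 0). The part of these other tissues in the lysozyme results was not tested.

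**Figure D4:**
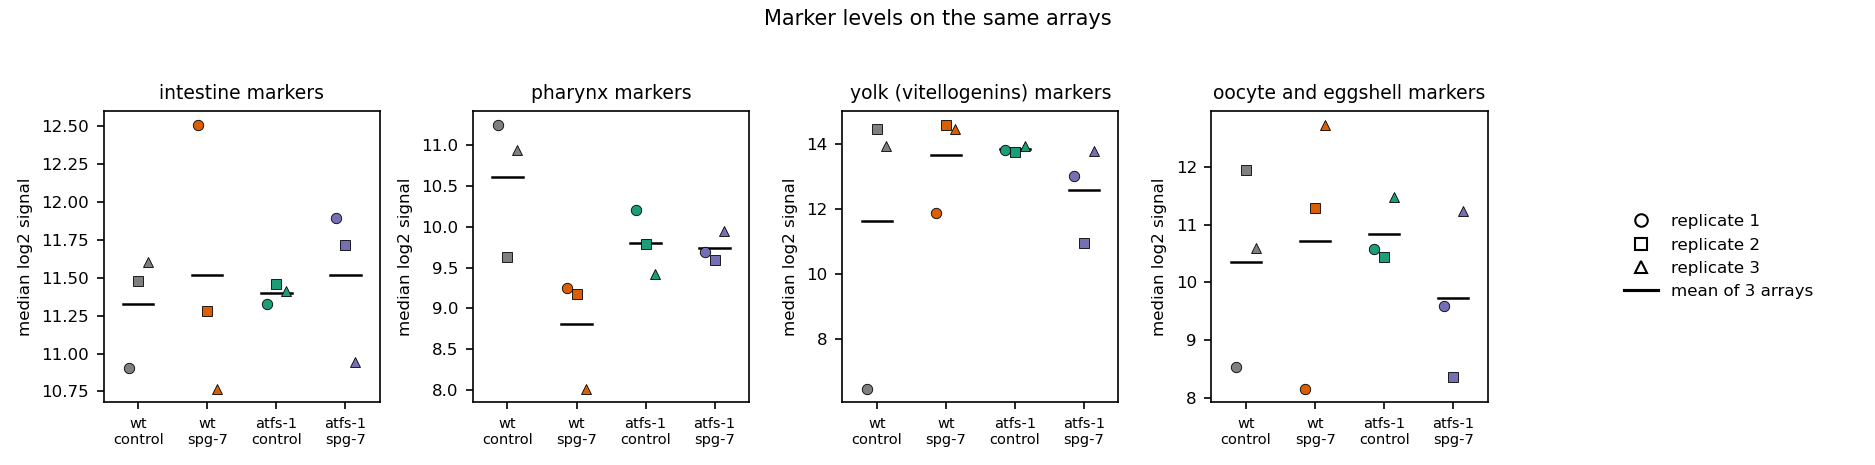
Median log2 signal of intestine, pharynx, yolk and oocyte and eggshell markers on each array, with replicate numbers as shapes and a line at the mean of 3 arrays. Intestine markers overlap between the RNAi groups, pharynx markers of wild type on spg-7 RNAi lie at 8.02 to 9.25, and wild-type control RNAi replicate 1 has the lowest yolk value, 6.46.

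A measure of RNA quality also moved with the treatment. The actin control probe sets at the 3' end exceeded those at the 5' end, on the log2 scale, by 0.43 to 0.62 on wild-type control RNAi and 0.82 to 0.85 on wild-type spg-7 RNAi, and 0.41 to 0.48 and 0.54 to 0.69 in the mutant. Its part in the lysozyme results was not tested. Apart from RNA quality, 2 wild-type arrays were left out together, replicate 1 of control RNAi and replicate 3 of spg-7 RNAi. In that fit lys-2, lys-7 and lys-1 were called in wild type (limma adjusted p = 0.0057, 0.0119 and 0.0355). It made 1227 calls over all genes, against 491 in the main fit. That spg-7 RNAi array was the lowest of its group for all 3 genes, so leaving it out raises their differences. The control array was the lowest of its group for lys-1 and lys-2, so leaving it out lowers theirs. The oocyte and eggshell level as a covariate gave calls for the same 3 genes (0.0090, 0.0089 and 0.0257), with 1352 calls over all genes. With the vitellogenin level as the covariate lys-2 and lys-7 were called (0.0063 and 0.0091) and lys-1 was not (0.0535). That fit made 1541 calls over all genes. Calls thus rose over all genes in each of these 3 fits, not in lysozyme genes alone.

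The tested members varied together to very different degrees over the 12 arrays, which share the group structure. Pearson's r of log2 signals was 0.93 for lys-1 and lys-2, and 0.78 after the group means were removed. For lys-1 and lys-8 these were 0.77 and 0.77, and for lys-4 and lys-6 they were 0.65 and 0.57. The r of lys-7 with lys-2 was 0.64, and 0.08 after the group means were removed. By the same measure the tested gene most like lys-2 was clec-4, a C-type lectin gene (r = 0.97), followed by fdps-1, which encodes farnesyl diphosphate synthase (0.96). For lys-1 it was aex-4 (0.95), for lys-8 C16B8.3 (0.94) followed by asp-3, an aspartyl protease gene (0.93), and for lys-7 nssp-77 (0.91). The highest values were 0.90 for lys-4 (C42D4.13), 0.85 for lys-6 (Y59C2A.1) and 0.88 for ilys-3 (sav-1). These are the highest of 10385 genes each.

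Among the lysozyme genes outside the list, ilys-5 fell in wild type on spg-7 RNAi. At its brightest probe set it gave 16488, 17907 and 22272 on wild-type control RNAi and 5573, 8917 and 6362 on wild-type spg-7 RNAi. These groups were far apart. They did not overlap, as for the 8.48% of all tested genes wholly lower in this comparison, where 1.43% were called lower. The log2 difference was -1.46 ± 0.28 (SE; 2.75-fold lower, limma adjusted p = 0.0127), and the call was lost when replicate 3 of the wild-type control arrays was left out (-1.33, adjusted p = 0.0578). Of 16 other refits 15 kept the call (limma adjusted p up to 0.0612). The mutant values of ilys-5 were 22163, 17162 and 11419 with control RNAi and 16555, 19932 and 13152 with spg-7 RNAi, groups that overlapped. The difference between the responses was 1.46 ± 0.39 (SE), with an unadjusted limma p of 0.0031 and an adjusted p of 0.583, so like that of lys-7 it did not pass over all genes. The other probe sets of ilys-5 gave -1.52 and -1.51 in wild type and 0.02 and -0.08 in the mutant. All 3 are of types s or x, which can bind related transcripts.

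**Figure D5:**
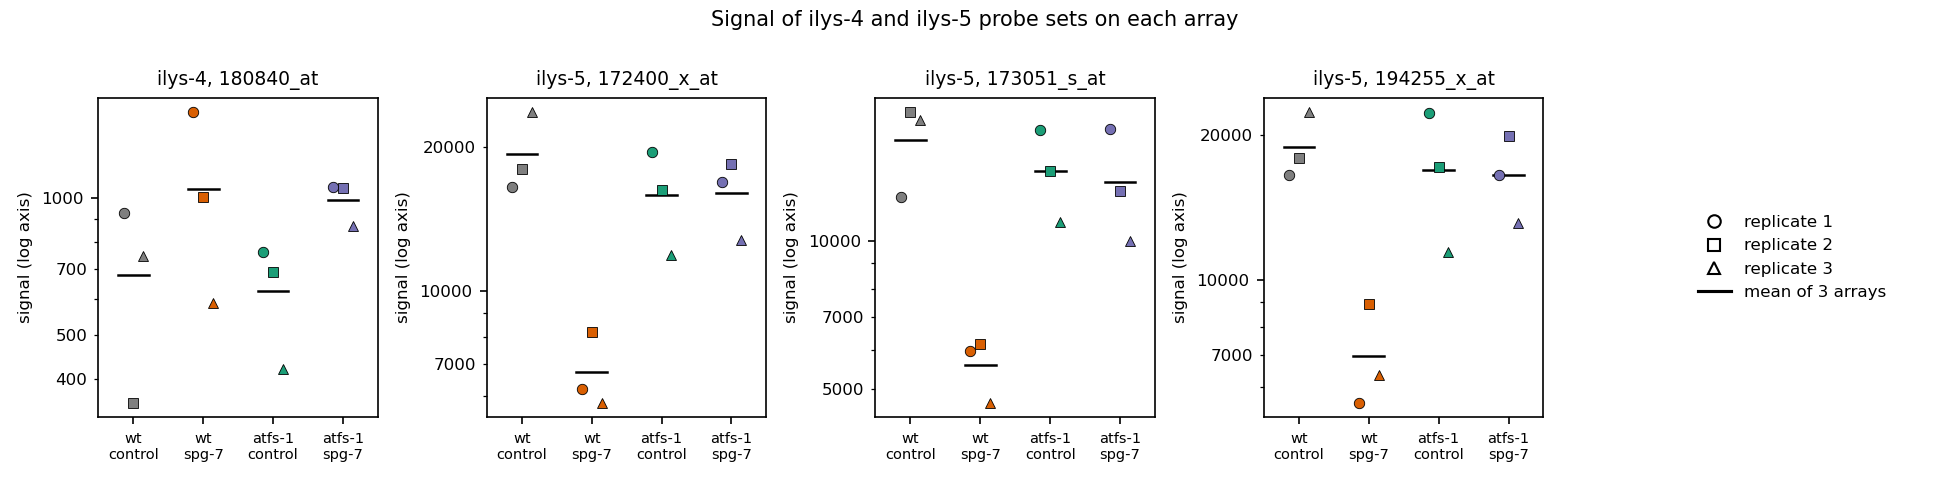
Deposited signal (log axis) of the probe sets of ilys-4 and ilys-5 that passed the filter, on each array, with replicate numbers as shapes and the arithmetic mean of 3 arrays as a line. At all 3 ilys-5 probe sets the wild-type spg-7 RNAi arrays lie below all other arrays.

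The gene ilys-4 gave 354 to 930 on wild-type control RNAi and 587 to 1547 with spg-7 RNAi, and was not called (log2 0.63, adjusted p = 0.443). In the mutant ilys-4 stood at 420 to 762 and 870 to 1059, groups that did not overlap (log2 0.71, adjusted p = 0.624). In that comparison 13.1% of all tested genes were wholly higher on spg-7 RNAi. The other family members were under the filter. The signal of ilys-2, next to ilys-3, was 9.88 to 49.7 on wild-type control RNAi and 32.6 to 355 on wild-type spg-7 RNAi (log2 2.32 without the filter, limma adjusted p = 0.260). Signals of ilys-1 stayed between 1.52 and 35.7, and those of lys-9 and ilys-6 between 0.744 and 3.63.

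Other antimicrobial genes split in the same wild-type comparison. Of 23 saposin-like spp genes, which encode caenopores, pore-forming proteins that act on bacterial membranes, 12 were tested, 2 rose and 1 fell, beside 3.29% and 1.43% of all tested genes. The gene spp-18 rose 3.66-fold, from 833 ± 240 to 2988 ± 510 (SD, n = 3; adjusted p = 0.0101), and the call held without each of the 12 arrays. It was lost when scaled to the hybridisation controls (0.0596) or when only the wild-type arrays were fitted (0.0526). The gene spp-15 rose 2.45-fold (adjusted p = 0.0320), a call lost in 6 of 12 fits without 1 array: wild-type control RNAi replicates 2 or 3, wild-type spg-7 RNAi replicates 1 or 2, or mutant spg-7 RNAi replicates 1 or 3 (adjusted p = 0.0511 to 0.111). The gene spp-4 fell 3.00-fold, from 2174 ± 541 to 793 ± 475 (adjusted p = 0.0269), lost in 4 of them, at adjusted p of 0.0501 to 0.109 without wild-type control RNAi replicates 2 or 3 or wild-type spg-7 RNAi replicates 2 or 3. The median of the 12 was 0.11, and none was called in the mutant, where 2 had an unadjusted limma p under 0.05 (9.47% of all genes). There spp-18 went from 1451 ± 653 to 3534 ± 524 (2.61-fold, adjusted p = 0.104), and the log2 differences of spp-15 and spp-4 were 0.455 and -0.75. In the average over genotypes spp-18, spp-15 and spp-4 were each called (limma adjusted p = 0.0019, 0.0302 and 0.0164), as were 7.13% of all genes.

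For regulators of immunity and of the intestine, the transcripts of 4 lists were read in the same comparisons. Over all tested genes 4.73% were called in wild type and 1.17% in the mutant, and 20.1% and 9.47% had an unadjusted limma p under 0.05. Of 11 genes of the PMK-1 pathway 9 were tested, with medians of 0.53 and 0.48 in wild type and mutant. Limma called none in either genotype, and 4 and 2 had an unadjusted p under 0.05. Of 10 genes of the DBL-1 pathway 9 were tested, with medians of 0.14 and 0.33 and no call (2 and 1 at an unadjusted limma p under 0.05). Of 7 genes of insulin-like signalling and DAF-16, 6 were tested, with medians of 0.34 and -0.09, no call, and 0 in both genotypes at an unadjusted limma p under 0.05. Among 10 other immune and intestinal transcription factors 9 were tested and pqm-1, a zinc finger factor known to act opposite to DAF-16, rose in wild type. Its signal went from 571 ± 14.2 to 2111 ± 1127 (SD, n = 3), 3.37-fold with an adjusted p of 0.0160, a call lost when replicate 3 of the wild-type control arrays was left out (0.0532). Of 16 other refits 15 kept the call (limma adjusted p up to 0.118). In the mutant no gene of that list was called in limma, with 2 at an unadjusted p under 0.05. Of these, pqm-1 went from 879 ± 324 to 1541 ± 103 (SD, n = 3), a log2 difference of 0.87 (adjusted p = 0.449). Its difference between responses was -0.89 and not called (limma adjusted p = 0.836). The average over genotypes was 1.31 for pqm-1 and called (limma adjusted p = 0.0083), as were 7.13% of all genes.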

How the data were processed

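The authors' deposited signal intensities, 1 value per probe set and array, were used as deposited. The submitters' processing notes name MAS5; its version and settings are not given in the sources used here. Leaving off 2% of probe sets at each end, every array had a mean of 500.1 to 500.2, so the deposited values share a common scaling. Signals were floored at 1 (0.509% of values) and taken to log2. The 77 control probe sets were set aside, probe sets in the lowest 40% by mean log2 signal were not tested, and each gene was represented by its brightest probe set with 1 gene name. Group means were estimated over all 12 arrays with limma 3.58.1 (variance trend, 8 residual and 3.71 prior degrees of freedom) in R 4.3.3 with the data.table package (1.17.8), with Benjamini-Hochberg adjustment over 10385 genes. Intervals use the fit's 11.7 degrees of freedom. Genes under the filter were read from a fit without it.

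The members, lists and tests were chosen with earlier results of these data known. All members and label genes were named. For lists the called members were named, up to 4 per comparison, and for likeness the 3 genes with the highest r were eligible. The fit was tested on simulated data. Same-numbered arrays of mutant control and mutant spg-7 RNAi deviated together from their group means over all 3 pairs (r of 0.29, 0.42 and 0.53); the pairing rests on these values, not on the labels. The alternatives were other scalings, offsets, filters, probe-set rules, variance models, covariates and arrays left out; the average over genotypes and the intestine covariate were added after the data had been seen. Sequences of the genes and probes are not shown. With 3 arrays a group, the number of arrays limits precision. Plots used matplotlib 3.10.9 and Python 3.11.15.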

Additional observations from a re-analysis of the deposited data

How the results depend on the processing

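The count of lysozyme genes called in the wild-type response, 2, was 0 when only the wild-type arrays were fitted and at an adjusted p under 0.01, and 0 to 3 without 1 array. It stayed at 2 or 3 under every other alternative run, the scalings included. In the mutant response the count of 0 became 1 in a fit of the mutant arrays alone (lys-2), 2 with array weights, 1 with wild-type control RNAi replicate 1 and spg-7 RNAi replicate 3 both left out, 1 with the vitellogenin covariate, and 0 to 1 without 1 array. With array weights the counts were 1 for the difference between responses (lys-7, log2 -3.40, adjusted p = 0.0225), 2 for genotype on spg-7 RNAi and 5 for the average over genotypes. That average, with 3 calls, had 1 at an adjusted p under 0.01, 1 to 4 without 1 array, and 4 with the 2 arrays left out together. It had 2 under 8 alternatives: lys-2 and lys-1 with quantile normalisation, no filter, the lowest 60% left out, every probe set its own unit, no variance trend or the intestine covariate, lys-2 and lys-7 at a 2-fold minimum, and lys-2 and lys-4 scaled to hybridisation controls. Over all genes the calls in wild type, 491, ran from 84 to 1580 over the alternatives, those in the mutant, 121, from 31 to 811, those for genotype on spg-7 RNAi, 10, from 0 to 1077, and those of the average, 740, from 286 to 2483. The counts of 0 for the difference between responses and for genotype on control RNAi reached 35 and 38. Scaling to the hybridisation controls moved the median of all genes from -0.04 to -0.25 in wild type and from -0.02 to -0.77 in the mutant. It also moved that median from -0.02 to 0.43 for genotype on control RNAi and from -0.05 to -0.53 for the average. Centring on array medians moved the median of all genes to 0.08 in wild type and to -0.22 for genotype on spg-7 RNAi.

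Replicate numbers did not pair the arrays across all groups: of 18 pairs of arrays with the same number, 11 had deviations from the group means that correlated over 0.1, in a range from -0.66 to 0.66. With the replicate number as a block shared by all 4 groups, 2 lysozyme genes were called in wild type, lys-2 and lys-7 (adjusted p = 0.0205 and 0.0092). For mutant control and mutant spg-7 RNAi, where all 3 same-numbered pairs correlated over 0.1, the block gave 106 calls over all genes and no lysozyme gene (lys-2 at 0.171). As the block took in the wild-type arrays too, it was no paired test of the mutant groups alone. It changed no lysozyme call in the other comparisons run.

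None of the 10 called gene values changed sign under any alternative run. Those of listed genes were lys-2 and lys-7 in wild type and lys-1, lys-2 and lys-7 for the average. The others were ilys-5, spp-4, spp-15, spp-18 and pqm-1 in wild type, genes outside the list. Of 1413 gene values under the alternatives 43 changed sign, all of uncalled differences, and the cause was not tested. Values scaled to hybridisation controls or centred on medians stand beside the shifts of the median of all genes given above. In the mutant response ilys-3 (0.22) went to -0.53 scaled to hybridisation controls, -0.16 with 32 added, -0.69 with array weights, -0.13 with the oocyte covariate, -0.068 with the vitellogenin covariate and -1.20 to 1.45 without 1 array. There lys-8 went to -0.43 and lys-7 to -0.65 scaled to hybridisation controls, lys-7 to -0.33 with array weights and -0.32 to 0.39 without 1 array, and lys-4 ran from -0.72 to 0.16 without 1 array. For the difference between responses lys-1 was 0.10 with array weights and -0.48 to 0.023 without 1 array, lys-6 -0.65 to 0.27 and lys-8 -0.55 to 0.040. For genotype on control RNAi lys-1 was 0.11 with quantile normalisation, 0.44 scaled to hybridisation controls, 0.032 with the oocyte covariate and -0.24 to 0.17 without 1 array. There lys-2 was -0.40 with the 2 arrays left out together, -0.093 with the vitellogenin covariate and -0.40 to 0.81 without 1 array, lys-8 was -0.0039 with array weights, lys-4 ran from -0.041 to 0.84 and ilys-3 from -0.41 to 2.85. For genotype on spg-7 RNAi lys-8 was -0.20 centred on medians, -0.067 scaled to hybridisation controls, -0.21 with array weights, -0.35 with the 2 arrays left out together, -0.13 with the oocyte covariate, -0.0023 with the vitellogenin covariate and -0.35 to 0.24 without 1 array, and lys-1 ran from -0.50 to 0.0098. The average of lys-8 was -0.066 scaled to hybridisation controls. Of the other gene values 59 lost a call and 21 gained one.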
